A study of Mus musculus with 2 samples.

Results

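The genes described here are 6 members of the mouse Ly6 family of surface proteins, Ly6d, Ly6a, Ly6c1, Ly6e, Ly6k and Ly6h. They were chosen by name from the gene names of the array design, which gave 8 probes of 39429 and 6 gene names of 31896. The choice was made with their measured levels already known, so the levels and differences below describe them and are not tested. The study set the liver of a wild-type C57BL/6 mouse beside the liver of an Alb-Cre;CAG-floxed neo-Snail C57BL/6 mouse, with 1 Agilent 1-colour array for each. In Alb-Cre the promoter of albumin, a gene of hepatocytes, drives the Cre recombinase, and the other allele names a Snail transgene with the CAG promoter and a floxed neo cassette. The series title sets the model in the context of steatohepatitis and liver tumours arising from Snail in hepatocytes. The labels give no age, sex or diet and do not tell tumour from tumour-free liver. With 1 array per genotype there was no replicate, so no difference below has a test, a p-value or a spread between animals.

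Ly6 proteins are small, cysteine-rich proteins that fold into the three-finger shape first known from snake toxins, and most are held on the outer cell surface by a glycosylphosphatidylinositol (GPI) anchor. Related proteins of the LY6/uPAR superfamily include the urokinase receptor, the complement inhibitor CD59 and GPIHBP1, which carries lipoprotein lipase in capillaries. In mice many Ly6 genes are clustered on chromosome 15, and several are used as markers, Ly6a (Sca-1) for stem and progenitor cells and endothelium, Ly6c for monocytes and endothelium, and Ly6d for B cell precursors and stratified epithelium.

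The 60-base probes are what each level below rests on, and they are shown because relatives in this cluster are alike in sequence. The first 30 bases are printed for the probe of the member with the widest difference, Ly6d, for that of Ly6a and for the brighter probe of Ly6c1. All 60 are printed for the dimmer probe of Ly6c1, which differed from its brighter partner, and for Ly6k, which was detected in 1 liver only. They are copied from the scanner files in lower case, with no base marked.
Ly6d: caggacaggaagatgtggcttgtgtcccag
Ly6a: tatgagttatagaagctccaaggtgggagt
Ly6c1 brighter probe: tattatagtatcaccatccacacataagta
Ly6c1 dimmer probe: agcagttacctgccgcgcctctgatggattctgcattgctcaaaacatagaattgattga
Ly6k: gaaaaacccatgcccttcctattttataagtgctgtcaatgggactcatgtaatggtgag
The longest exact run that any of the 8 probes shared, on either strand, with a probe of another gene was 13 to 15 of 60 bases, and with a probe of another LY6/uPAR gene it was 8 to 10 bases. Runs were compared between probes only, not with transcripts, so they do not tell whether a probe also reads the transcript of a relative. The accessions of the dimmer Ly6c1 probe name both Ly6c1 and its close relative Ly6c2, so its level cannot be given to Ly6c1 alone, while the accessions of the other 7 probes name 1 gene each.

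Levels are the scanner software's processed signal, an intensity after background subtraction, and a scaled signal is that intensity divided by the 75th percentile of its own array. That percentile was 232.7 for wild type and 302.1 for the transgenic liver, and 21800 (50.7%) and 23230 (54.0%) of 43020 spots that were not controls were well above background by the software's own call. Differences are log2 of the scaled signal in the transgenic liver minus that in the wild-type liver. Over the 15472 genes measured on both arrays the median difference was -0.03, and 2-fold or more separated the livers for 614 genes (3.97%) that were higher and 979 (6.33%) that were lower in the transgenic liver. The hepatocyte gene Alb had a signal of 226792 and 190813, and all 14 hepatocyte markers were well above background on both arrays. Snai1, the gene of the transgene, had a dim signal of 23.2 in the wild-type liver and 22.3 in the liver labelled as transgenic, a log2 difference of -0.44. Where its probe lies relative to the transgene is not known, so Snai1 did not check the label, and "the transgenic liver" here means the library so labelled.

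Of the 6 Ly6 genes, 4 were measured on both arrays, and 3 of these 4 (Ly6d, Ly6a and Ly6c1) were at least 2-fold higher in the transgenic liver, beside 3.97% of all genes measured. None was lower by 2-fold. Probe by probe, 3 of the 5 measured on both arrays passed 2-fold upward and none downward, beside 3.75% and 6.15% of all 19053 measured probes. Ly6e was bright in both livers and differed by less than 2-fold, Ly6k was detected in the transgenic liver only, a state shared by 1393 of all gene names (4.37%), and Ly6h was not well above background in either. The median difference of the 4 was 2.62, with all 4 above 0. Since these differences led to the choice of the genes, the counts carry no more than the description.

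**Figure D1:**
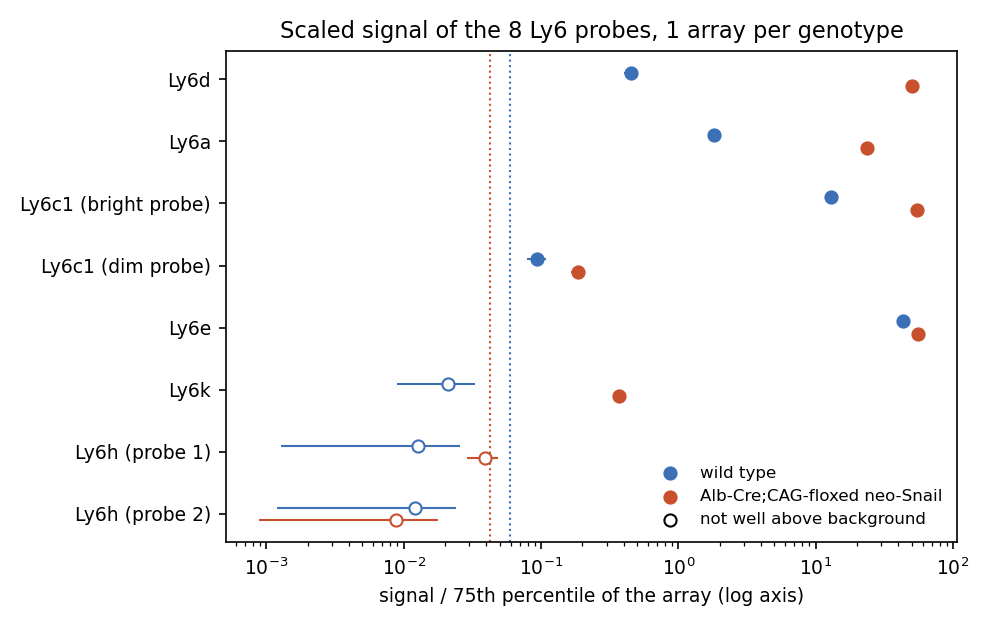
Scaled signal (signal divided by the 75th percentile of its array, log axis) of each of the 8 Ly6 probes in the wild-type liver (blue) and the transgenic liver (red). Horizontal bars are the scanner software's own error of the signal and not a spread between animals, dotted lines mark the lowest signal well above background on each array, and open points were not well above background. Ly6d lies at 0.451 and 50.3, whereas Ly6e lies at 43.4 and 56.0, and levels of different probes cannot be compared with each other.

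Ly6d encodes the protein also known as ThB, a surface marker of B cell precursors and of stratified epithelia. Its probe (accession NM_010742, chr15:74592551-74592610, minus strand, mouse build mm9) read 104.9 ± 10.9 in the wild-type liver and 15199 ± 1520 in the transgenic liver, where ± is the scanner software's error of 1 spot. Both spots were well above background, and the 2 readings were far apart on the scale of those errors. Before any background subtraction the same spots had mean intensities of 187.9 and 17019, over local background medians of 67.0 and 63.0. In scaled signal Ly6d went from 0.451 to 50.3, a log2 difference of 6.80 (111.5-fold) with a scanner error of 0.21 on that scale. Probes printed several times on the arrays, with signals from 100 to 1000 on the dimmer array, had a median SD of 0.06 for the log2 difference between single spots, which holds array noise only. Ly6d had the sixth largest positive difference of the 15472 genes measured. Ranked directly above it were Plin4 (6.97) and Cidec (6.88), whose proteins coat and fuse lipid droplets, and directly below it were the stearoyl-CoA desaturase gene Scd2 (6.25) and the DNA repair gene Rad51b (5.57).

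Ly6a encodes Sca-1, the antigen by which mouse haematopoietic stem and progenitor cells are commonly sorted, which is also found on endothelial cells and lymphocytes. Its probe (NM_010738, chr15:74825553-74825612, minus strand, mm9) read 423.5 ± 42.4 in the wild-type liver and 7179 ± 718 in the transgenic liver. The transgenic reading was again far outside the scanner error of the other. The scaled signal was 1.82 and 23.8, a log2 difference of 3.71 (13.1-fold) with a scanner error of 0.20. It was in place 30 from the top. The muscle carnitine palmitoyltransferase gene Cpt1b (3.93) and the ion exchanger gene Slc24a3 (3.80) stood directly above, and the retinol dehydrogenase gene Dhrs9 (3.63) and the glutathione peroxidase gene Gpx3 (3.56) directly below.

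**Figure D2:**
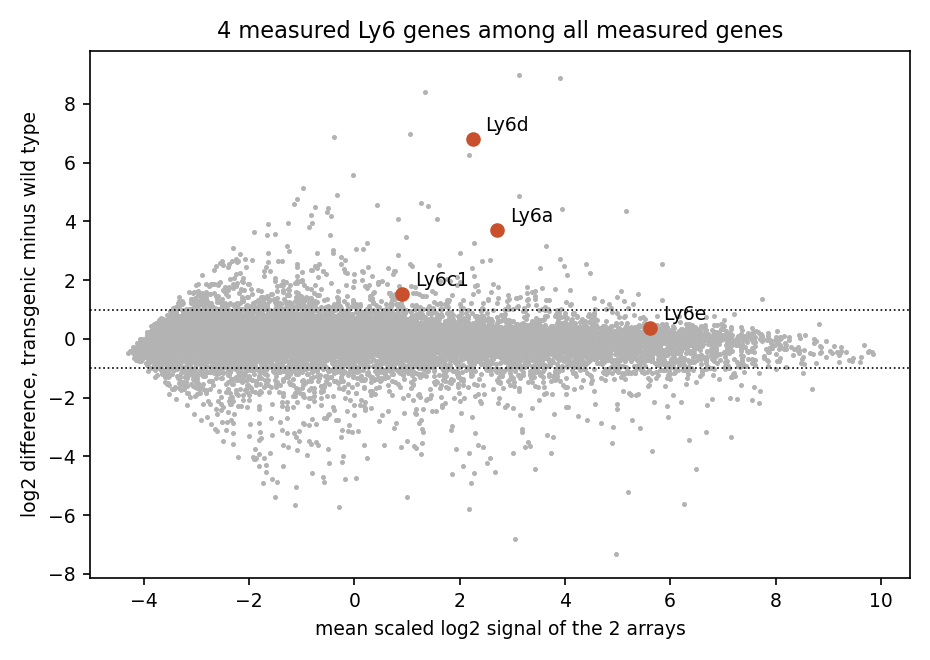
Log2 difference, transgenic minus wild type, against the mean scaled log2 signal of the 2 arrays for the 15472 genes measured on both (grey), with the 4 measured Ly6 genes in red and dotted lines at 2-fold. Ly6d (6.80) and Ly6a (3.71) lie above nearly all genes of like signal, Ly6c1 (1.53, mean of its probes) is past the 2-fold line, and Ly6e (0.37) lies inside it.

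Ly6c1 encodes one of the Ly6C antigens, which mark inflammatory monocytes, some T cells and endothelium. Its brighter probe (NM_010741, chr15:74875495-74875554, minus strand, mm9) read 3024 ± 302 in the wild-type liver and 16646 ± 1665 in the transgenic liver. In scaled signal that was 13.0 and 55.1, a log2 difference of 2.08 (4.24-fold) with a scanner error of 0.20. The dimmer probe (chr15:74877785-74877844, minus strand, mm9), whose accessions also name Ly6c2, read 21.9 ± 3.60 and 56.2 ± 6.25. Its scaled signal was 0.0941 and 0.186, a log2 difference of 0.98 (1.98-fold) with a scanner error of 0.29. Both probes were higher in the transgenic liver, the dimmer one just under 2-fold, and their log2 differences were more than 1 apart. Among the 3039 genes with several measured probes, 110 (3.62%) had probes that differed by more than 1. The brighter probe, whose accessions name Ly6c1 alone, would stand in place 120 among all genes. The mean over both probes, by the rule used for every gene, was 1.53 (2.90-fold), in place 240, and it includes the probe that may also read Ly6c2. Neighbours of that mean by rank, Plxdc2 and Pif1 above (both 1.54) and Mpzl1 and Fitm1 below (both 1.53), were within 0.01 of it.

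Ly6c1 was the 1 member of the 6 that could be matched in the promoter table used, with 2 entries. The first is printed because Snail proteins bind E-boxes and the question of the series is a Snail transgene. It runs from 250 bases before the gene's start to 50 after (RefSeq, GRCm38.p6, chr15:75048788-75049087, minus strand), with capitals on every E-box (CANNTG), TATA box (TATAAA) and CCAAT box found.
Ly6c1 promoter: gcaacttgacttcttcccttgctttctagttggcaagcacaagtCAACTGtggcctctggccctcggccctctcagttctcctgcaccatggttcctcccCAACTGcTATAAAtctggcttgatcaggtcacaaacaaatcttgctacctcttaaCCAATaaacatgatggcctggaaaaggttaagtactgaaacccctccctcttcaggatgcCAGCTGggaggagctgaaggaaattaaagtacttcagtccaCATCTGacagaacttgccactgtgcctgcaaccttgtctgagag
Both strands were searched in this stretch and in all 32851 promoters of the table. The E-box form CAGGTG, the core that Snail proteins are best known to bind, was not in the Ly6c1 window and was in 20.2% of all promoters. The general E-box CANNTG, which includes CAGGTG, was present 4 times, against a share of 72.3% of promoters with at least 1. TATAAA was present once (13.6% of promoters hold it) and CCAAT once (37.4%). The STAT site form TTCNNNGAA (8.30% of promoters) was not in the window. A match in these letters is a description of the sequence, and its absence says nothing of whether a factor acts on Ly6c1.

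Ly6e, also called Sca-2 or TSA-1, is a widely expressed member that is known as an interferon-inducible gene, as a restriction factor for coronaviruses and as a receptor for the placental protein syncytin-A. Its probe (NM_001164036, chr15:74789592-74789651, plus strand, mm9) read 10092 ± 1009 in the wild-type liver and 16907 ± 1691 in the transgenic liver. In scaled signal that was 43.4 and 56.0, a log2 difference of 0.37 (1.29-fold) with a scanner error of 0.20. Ly6e was thus bright in both livers, with a difference under 2-fold in the direction of the others.

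Ly6k encodes a member best known from testis, where it takes part in sperm function. Its probe (NM_029627, chr15:74627529-74627588, minus strand, mm9) read 4.88 ± 2.81 in the wild-type liver, which was not well above background, and 112.6 ± 11.6 in the transgenic liver, which was. The spots' mean intensities before background subtraction were 78.5 and 196.3, over local background medians of 66.0 and 59.5. With the wild-type reading raised to 13.8, the dimmest signal called well above background there, Ly6k was at least 6.28-fold higher in the transgenic liver in scaled signal.

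Ly6h encodes a member known from brain, where it acts on nicotinic acetylcholine receptors. Its 2 probes (NM_011837, chr15:75395175-75395234 and chr15:75395668-75395727, minus strand, mm9) read 2.97 ± 2.97 and 2.80 ± 2.79 in the wild-type liver, and 11.8 ± 3.05 and 2.67 ± 2.66 in the transgenic liver. None of these 4 readings was well above background, so Ly6h has no fold difference here, and a low level of it was not detectable.

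All 8 probes lie on chromosome 15. From the Ly6d probe, that of Ly6k is 35.0 kb away, Ly6e 197.0 kb, Ly6a 233.0 kb, the Ly6c1 probes 282.9 and 285.2 kb, and the Ly6h probes 802.6 and 803.1 kb. Order along the chromosome was not order of difference, since Ly6e (0.37) lies between Ly6k (at least 6.28-fold higher) and Ly6a (3.71). Within 500 kb of a member probe there were probes for 63 genes, of which 57 are not among the 6. Of these 57, 27 were measured on both arrays. The 27 had a median of -0.29 and a range from -0.997 to 1.72. In the transgenic liver 2 of them passed 2-fold upward and none downward, beside 3.97% and 6.33% of all genes measured. The 2 were Lynx1, 12.7 kb from Ly6d, a call that 3 of 10 other ways of processing did not keep, and an unnamed transcript (ENSMUST00000089689) 473.5 kb from Ly6d on the side of the other members, which read 110.3 and 302.1, a log2 difference of 1.08 (2.11-fold). Of the rest, 2 genes were well above background in the transgenic liver only, 2 in the wild-type liver only and 26 in neither. Of all 31896 gene names, 1393, 464 and 14559 were in those states. Ly6m, 116.4 kb from Ly6d and between Ly6k and Ly6e, had the opposite direction, with 60.0 in the wild-type liver and 6.36, not well above background, in the transgenic liver. In scaled signal Ly6m was at least 6.04-fold lower there.

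**Figure D3:**
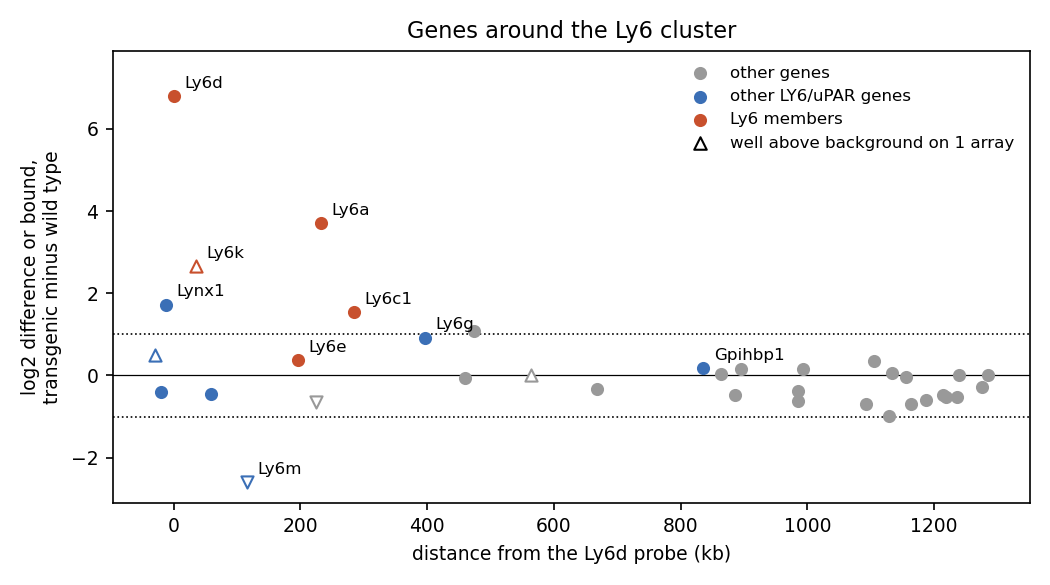
Log2 difference, transgenic minus wild type, of genes with probes within 500 kb of a Ly6 probe, against distance from the Ly6d probe in kb. Circles were measured on both arrays and triangles on 1, pointing up or down to show the direction of a bound or an observed ratio, and dotted lines mark 2-fold. Ly6d, Ly6a, Ly6k, Lynx1, Ly6c1 and 1 unnamed transcript (1.08) lie above the upper line, Ly6m lies below the lower one, and most other genes lie between.

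Other genes of the LY6/uPAR superfamily were taken from a list of 43, of which 37 were on the array. Of these, 10 were measured on both arrays. Of the 10, 1 was higher by 2-fold or more and none lower, beside 3.97% and 6.33% of all genes measured. The median of the 10 was 0.07 beside -0.03 over all genes. Lynx1, which encodes a modulator of nicotinic acetylcholine receptors, was the 1 that was higher, with signals of 26.0 and 111.2 and a log2 difference of 1.72 (3.30-fold). Of its 2 probes, only 1 was well above background on both arrays, and these values are from that probe. The Lynx1 call was lost under 3 of 10 other ways of processing the arrays, the normexp background correction, a minimum signal of 100 and no filter on dim probes. Each left 0 relatives higher. The minimum signal removed Lynx1, since 26.0 is under 100, and so did not measure it again. Ly6g, the Gr-1 antigen of neutrophils, read 144.7 and 354.6, a log2 difference of 0.92 (1.89-fold). Gpihbp1, the capillary binding protein of lipoprotein lipase, differed by 0.18 (1602 and 2363), and the complement inhibitor genes Cd59a and Cd59b by 0.07 each. The remaining 5 were Lypd5 at 0.18, Spaca4 at 0.02, Lypd6 at -0.05, Slurp2 at -0.40 and Gml2 at -0.45. A difference of several-fold was therefore seen in some family members and not in most of those that could be measured.

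A further 5 of these relatives were well above background in the transgenic liver only, a state shared by 4.37% of all gene names. Plaur, the urokinase receptor gene, read 12.5 and 29.5, at least 1.64-fold higher in scaled signal. Lypd2 and Ly6g6c had observed ratios of 1.41 and 1.26, with wild-type readings of their own above the lowest signal called well above background, so these are no limits. Ly6g6d and Ly6g6e were so dim that no fold is given. In the wild-type liver only, a state shared by 464 of all 31896 gene names, there were 2, Ly6m (above) and Lypd8. Lypd8 was at least 1.81-fold lower in the transgenic liver. The last 20, among them Ly6f, Ly6i, Psca and Slurp1, were well above background on neither array.

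Genes that a Ly6 protein depends on or acts with were read from gene lists. Of 30 genes for the synthesis, attachment and processing of GPI anchors, 25 were measured and none differed by 2-fold in either direction, with a median of -0.03. The widest differences were those of Pigh (-0.94), Pigs (-0.90) and Pigf (-0.76), genes of the anchor pathway. Pgap1, which remodels the finished anchor, was detected in the wild-type liver only (33.5 and 2.83, at least 3.37-fold lower in the other). Of 16 nicotinic receptor subunits, 2 were measured, Chrna2 (0.73) and Chrnb4 (0.26), 13 were well above background on neither array, and Chrna4 was detected in the wild-type liver only (71.7 and 4.03, at least 7.22-fold lower in the other). Interferon response genes, to which Ly6a and Ly6e are often counted, were 36 on the array and 35 measured, with 1 past 2-fold upward, 5 downward and a median of -0.19. Zbp1 (-1.63), Oasl1 (-1.55) and Bst2 (-1.40) had the widest differences, and Cxcl10 (1.11) was the 1 past 2-fold upward. Of the 35 measured, 15 were above 0. A part of interferon in the Ly6 differences was not tested.

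Several Ly6 genes mark particular cells, and in whole liver more cells of a type and more RNA per cell cannot be told apart. Summed levels below add the scaled signals of different probes, so the brightest genes dominate them. Counts past 2-fold in the marker lists below stand beside 3.97% of all genes measured that were higher and 6.33% that were lower. Of 6 measured neutrophil markers, 3 were at least 2-fold higher, Lcn2 (3.16), which hepatocytes also make, S100a8 (1.99) and S100a9 (1.57), and the other 3 were near 0, Elane (0.10), Csf3r (0.02) and Camp (-0.11). Their median was 0.83 and their summed scaled level was 79.8 in the wild-type and 116.7 in the transgenic liver. Without Lcn2 the sums were 75.6 and 79.7, of which Csf3r alone held 73.0 and 73.8. The sum without Lcn2 therefore says little of the dimmer S100a8 and S100a9. A further 3 markers (Mpo, Cxcr2 and Retnlg) were above background in the transgenic liver only, and Ltf, Ngp and Mmp8 were well above background on neither array. Among macrophage and monocyte markers, 1 of 11 measured was at least 2-fold higher, Marco (1.50), with a median of 0.13 and summed levels of 67.5 and 80.9 (63.0 and 68.1 without Marco). Cx3cr1 was detected in the transgenic liver only, at least 3.60-fold higher, and Ccr2, the receptor of Ly6C-high monocytes, was well above background on neither array.

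Endothelial markers, the class that shares Ly6a and Ly6c1, had 2 of 15 measured genes at least 2-fold higher, Lyve1 (1.99) and Cd34 (1.39), with Tie1 at 0.50, a median of 0.06 and summed levels of 69.7 and 70.7. B and plasma cell markers, the class that shares Ly6d, had 2 of 6 at least 2-fold higher, Ms4a1 (1.25) and Vpreb3 (1.21), and 1 lower, Sdc1 (-1.27), with a median of 0.52. Their summed levels were 12.0 and 6.37 with Sdc1, and 1.20 and 1.88, the opposite direction, without it. Of the others, Pax5, Blk and Fcer2a were well above background on neither array. T and NK cell markers had none of 11 higher and 2 lower, Zap70 (-2.18) and Cd4 (-1.36), with Cd2 at 0.62 and a median of 0.28, with 8 of the 11 above 0. Their summed levels were 20.6 and 7.79, and without Zap70 and Cd4 the remaining 9 summed to 3.04 and 3.33. The markers Cd8a, Cd8b1, Ncr1, Klrb1c and Gzmb were well above background on neither array. All these counts stand beside 3.97% of all genes measured that were higher and 6.33% that were lower.

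Of the markers of stratified and basal epithelium, the other class that shares Ly6d, 4 of 15 were measured, with Trp63 at least 2-fold higher (1907 and 6262, log2 difference 1.34) and Sfn (-0.88) and Sprr1a (-0.60) below 0. Their summed levels were 8.44 and 20.9 (0.248 and 0.166 without Trp63), their median was -0.44, and 10, with the defining keratins Krt5 and Krt14 among them, were well above background on neither array. Cholangiocyte markers had 3 of 11 measured, Sox9 (1.55), Spp1 (0.58) and Prom1 (-1.77), with a median of 0.58, summed levels of 2.62 and 1.36 (0.343 and 0.696 without Prom1), and Krt7, Krt19 and Epcam well above background on neither array. Hepatocyte markers were at least 2-fold lower in 4 of 14, beside 6.33% of all genes measured. Their median was -0.67 and their summed levels were 4887 and 3011, and Apoa1 (-3.04), Tat (-1.33) and Cyp2e1 (-1.27) were the widest. Erythroid markers had none of 4 past 2-fold, with Klf1 at -0.64, Slc4a1 at -0.54 and Alas2 at 0.49, a median of -0.37 and summed levels of 41.8 and 37.7. The part of each of these cell types in the Ly6 differences was not tested. No marker measured on both arrays in these lists had a difference as large as that of Ly6d or Ly6a. The Ly6 genes were chosen with their differences known, so this comparison carries no more than the description.

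**Figure D4:**
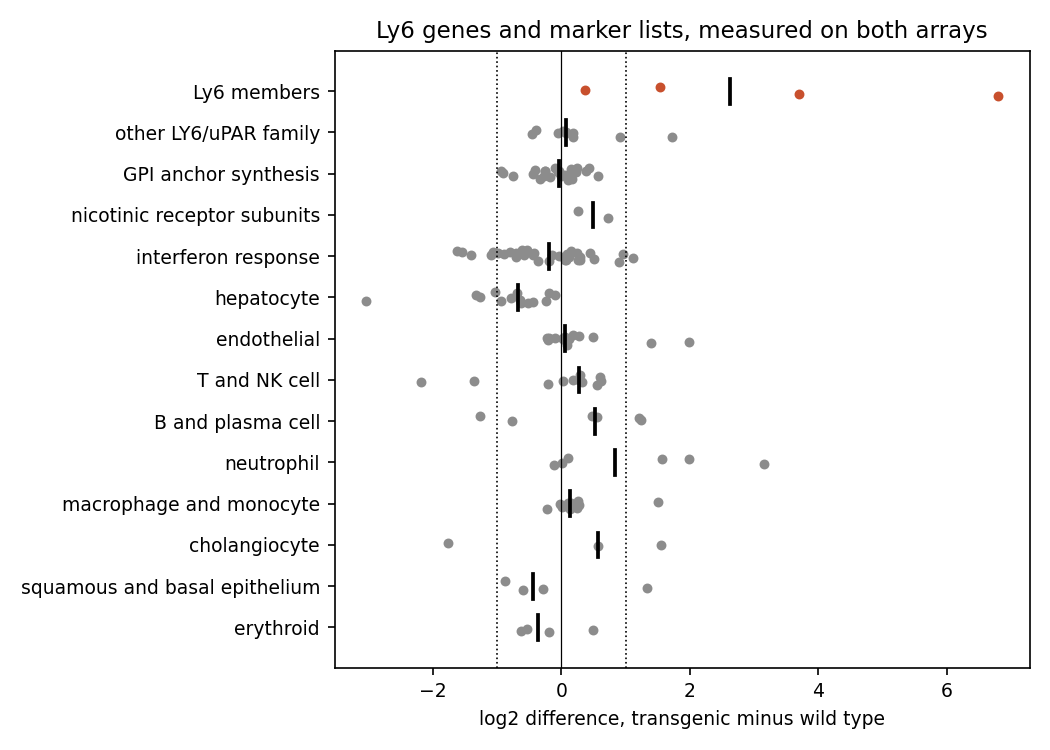
Log2 difference, transgenic minus wild type, of the 4 measured Ly6 genes (red) and of the measured genes of each list (grey), with a black bar at the median of each row and dotted lines at 2-fold. The Ly6 row has a median of 2.62 and holds genes chosen for their differences, and the medians of the lists lie from -0.67 for hepatocyte markers to 0.83 for neutrophil markers.

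The Ly6 differences were recomputed under 10 other ways of processing the arrays. Ly6d, Ly6a and Ly6c1 remained at least 2-fold higher under each of the 10, and no member was at least 2-fold lower under any. Not all of the 10 could change a value. The minimum signal, no filter on dim probes, kept outlier spots and the brightest probe left Ly6d at 6.80 and Ly6a at 3.71. Each has 1 probe, which passes those filters, so these settings add nothing for Ly6d and Ly6a. Ly6d kept a difference of at least 6.31, and the deposited value table of the authors gave 119.9-fold for Ly6d, 14.1-fold for Ly6a, 4.82-fold and 1.90-fold for the Ly6c1 probes and 1.51-fold for Ly6e. The dim readings moved most. Another background correction, normexp, was run with an offset of 50 added to each intensity, which by design brings dim readings closer together. With it the dimmer Ly6c1 probe had a log2 difference of 0.20, the mean of the Ly6c1 probes was 1.18, and the bound for Ly6k was 2.24-fold.

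**Figure D5:**
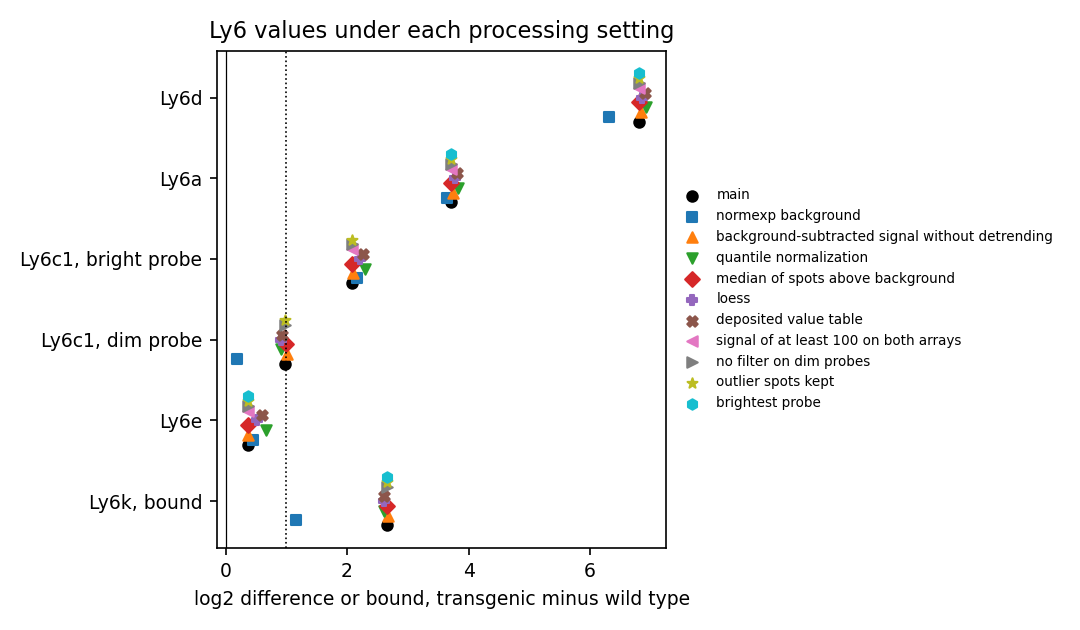
Log2 difference, transgenic minus wild type, of each Ly6 gene or probe and the log2 bound of Ly6k under the main setting (black) and each alternative (colours and shapes as in the legend), with the dotted line at 2-fold. The normexp background correction (blue squares) lowered Ly6d to 6.31, the dimmer Ly6c1 probe to 0.20 and the Ly6k bound to 1.17. The 2 probes of Ly6c1 are drawn apart, without their mean.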

How the data were processed

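Total RNA of 2 livers was labelled with Cy3 and hybridized to 2 arrays of 44397 spots. The scanner files the authors deposited hold intensity values. The submitters' processing notes name Agilent Feature Extraction 9.5.1.1. Background subtraction and spatial detrending had been done array by array, with no scaling from one array to the next, and the positions are on mm9, per the file headers. The authors' deposited value table, also intensity values, has the same sorted values in both columns to within 0.108 and a median of 17.3 in each. Each column followed its own array (r = 1.00 on the log2 scale), and how it was scaled is not given in the sources used here.

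From the scanner intensity, log2 signal minus each array's 75th percentile was taken. Control spots and 287 outlier spots were removed. None was saturated. Replicate spots were averaged per probe, and probes well above background on both arrays were averaged per gene. A gene seen on 1 array has a bound, the bright scaled signal over the higher of the lowest signal well above background on the dim array (13.8 and 12.9) and the probe's own. Where the probe's own was higher, the ratio is observed and no limit. Probes were named by accession through a RefSeq table (GRCm38.p6, names only), with 26055 of 39429 matched (66.1%), and the rest kept the files' names, which can be old. No annotation of mm9 was used here, so exons and UTRs are not given. The technical spread comes from 239 probes with at least 5 spots. The number of arrays limits the precision.

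The Ly6 genes and the 13 gene lists were chosen with earlier results of these data known. Named genes are Snai1, Alb, all probes of the 6 members, all relatives well above background on an array, up to 3 genes with the widest difference of each other list, genes within 500 kb at least 2-fold apart, and the 2 genes ranked above and below a member at least 2-fold apart. Elane, Csf3r, Camp, Cxcl10 and genes of a list that were not well above background on 1 or both arrays, other than those of the rule, were named after their values were seen. The values of 1 listed marker gene are not reported here. Alternatives were background correction (normexp with offset 50, or no detrending), scaling (quantile, loess or the median of spots above background), the value table, a signal of at least 100, no filter on dim probes (dim readings raised to the array's lowest signal well above background), outlier spots kept, and the brightest probe of a gene. Computation used Python 3.11.15, numpy 2.4.6 and pandas 2.3.3, with limma 3.58.1 in R 4.3.3 for normexp, quantile and loess, and the scripts were tested on simulated data.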

Additional observations from a re-analysis of the deposited data

How the results depend on the processing

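The count of Ly6 genes at least 2-fold higher was 3 under every alternative except with no filter on dim probes, where Ly6k made it 4, and the count lower was 0 under all 10. A value counts as moved where it shifted by more than the technical spread of its signal class. Normexp gave 6.31 for Ly6d, 0.45 for Ly6e, 2.16 and 0.20 for the brighter and dimmer Ly6c1 probes, 1.18 for their mean and 1.17 for the log2 bound of Ly6k. Quantile normalization gave 3.83 for Ly6a, 6.92 for Ly6d, 0.66 for Ly6e and 2.30 for the brighter Ly6c1 probe. Loess gave 3.77 for Ly6a, 0.52 for Ly6e and 2.21 for that probe, and the deposited value table gave 3.82 for Ly6a, 6.91 for Ly6d, 0.59 for Ly6e and 2.27 for that probe. Ly6c1 was 2.08 with a signal of at least 100 on both arrays or by its brightest probe, since both then leave only the brighter probe. No value changed sign. The offset of 50 that normexp added to each intensity by design brings dim readings of the livers closer together. The cause of the other shifts was not tested.

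Of the relatives, the 1 gene at least 2-fold higher (Lynx1) became 0 with normexp, with a signal of at least 100 and with no filter, and the count lower became 1 with no filter. Over all genes, 614 higher became 298 with normexp and 262 with a signal of at least 100, and 979 lower became 572 and 605. With no filter, each dim reading was raised to the lowest signal well above background on its array. The median over all genes of -0.47 under that setting is set by the ratio of those 2 floors and is no shift of genes, and the counts under it hold the same floors. No bound for Ly6k could be given with a signal of at least 100. Dim readings, of Ly6k, Ly6h and the dimmer Ly6c1 probe, are limited by their signal over background, and with 1 array per genotype no difference between animals was measured. No paired analysis was possible because each genotype has 1 array and no result comes from a test.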
